A study of Arabidopsis thaliana with 4 samples.

Results

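Abscisic acid is the plant hormone of drought, salt and seed maturation. It is made from carotenoids by 9-cis-epoxycarotenoid dioxygenases, and PYR/PYL receptors that bind it hold back clade A protein phosphatases (PP2C), which frees SnRK2 kinases to activate bZIP factors of the ABF and ABI5 group. These factors bind the abscisic acid response element (ABRE) upstream of genes for protective proteins such as dehydrins. In seeds the hormone acts during maturation and dormancy, and the funiculus is the stalk that carries vascular supply from the fruit to the seed.

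The 10 genes described here were chosen by locus from the 37051 loci of the deposited count table and are all in it. They are the ABF transcription factor genes ABF2 (AT1G45249), ABF3 (AT4G34000) and ABF4 (AT3G19290), their relative ABI5 (AT2G36270), the phosphatase genes ABI1 (AT4G26080) and HAI1 (AT5G59220), the synthesis gene NCED3 (AT3G14440), and the response genes LTI78 (AT5G52310, also called RD29A), RD29B (AT5G52300, also called LTI65) and RAB18 (AT5G66400). Messenger RNA was read from funiculi at flower stage 17 of Arabidopsis thaliana, from stk mutants and from wild type (wt) of the Columbia ecotype, with 2 biological replicates of 100 funiculi per genotype. Plants grew at 22 °C, with 16 h of light followed by 8 h of dark each day. STK (SEEDSTICK) encodes a MADS-box factor of ovule identity, and the comparison asks which funiculus transcripts differ without its normal function. The stk allele is not named in the labels.

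Depth was 4033589 and 12099218 counts in stk replicates 1 and 2, and 5757066 and 10229588 counts in wt replicates 1 and 2. Single-gene levels are given as CPM, read counts scaled by library size with TMM factors. On that scale 3 counts correspond to 0.247 to 0.776 CPM. Levels of different genes are compared as TPM, which also divides by annotated exon length. STK itself was read at 238 and 326 CPM in stk, against 374 and 555 CPM in wt, so STK transcript was still read in stk. Because the allele is not named, this level does not check the labels. HEC3, a bHLH gene of the funiculus and transmitting tract, was read at 2.85 and 1.40 CPM in stk, against 29.3 and 9.64 CPM in wt. In all 4 libraries the phloem markers SUC2, APL and SEOR1 had counts. In these bulk samples fewer cells of a type and less RNA per cell cannot be told apart. Of 10 embryo and seed storage markers, 2 and 6 were at 0 in stk replicates 1 and 2, and 4 and 4 in wt. Their summed level was 82.8 and 1.81 CPM in stk, against 246 and 1.56 CPM in wt, higher in replicate 1 of both genotypes. Summed seed coat markers, at 76.1 and 121 CPM in stk and 53.3 and 72.5 CPM in wt, were higher in replicate 2. So were summed endosperm markers, at 0 and 4.85 CPM in stk and 0.54 and 2.57 CPM in wt. Most of the seed coat sum was TT2, at 52.8 and 93.2 CPM in stk and 36.3 and 67.8 CPM in wt. BAN, TT12 and MUM2 were higher in replicate 1 in wt but in replicate 2 in stk. TT10, read only in stk, was higher in replicate 1.

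The 300 bases before the annotated start of LTI78 and RD29B are shown because these neighbouring genes, with 1185 bases between the end of RD29B and the start of LTI78, were read at very different levels. The same window of ABF3 is shown because ABF3 was the 1 member that DESeq2 and limma-voom called. Sequences are from RefSeq TAIR10.1, plus strand, and the build used by the authors is not given in the sources used here. Capitals mark the ABRE core (ACGTG, or CACGT where it lies on the other strand) and the core of the dehydration-responsive element (DRE; CCGAC, or GTCGG on the other strand), to which DREB factors bind.
LTI78, chr5:21240417-21240716: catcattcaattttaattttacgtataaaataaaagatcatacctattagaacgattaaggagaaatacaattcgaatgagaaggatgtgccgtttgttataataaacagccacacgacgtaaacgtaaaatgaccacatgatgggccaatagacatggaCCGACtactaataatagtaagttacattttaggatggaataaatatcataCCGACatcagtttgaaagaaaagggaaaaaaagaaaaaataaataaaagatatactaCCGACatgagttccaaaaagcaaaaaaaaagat
RD29B, chr5:21236721-21237020: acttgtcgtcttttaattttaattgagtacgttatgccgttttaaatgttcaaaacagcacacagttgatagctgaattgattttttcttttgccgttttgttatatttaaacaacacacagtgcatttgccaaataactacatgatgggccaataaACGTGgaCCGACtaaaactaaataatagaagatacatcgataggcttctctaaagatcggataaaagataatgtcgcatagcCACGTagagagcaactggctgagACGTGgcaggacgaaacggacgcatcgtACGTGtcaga
ABF3, chr4:16295034-16295333: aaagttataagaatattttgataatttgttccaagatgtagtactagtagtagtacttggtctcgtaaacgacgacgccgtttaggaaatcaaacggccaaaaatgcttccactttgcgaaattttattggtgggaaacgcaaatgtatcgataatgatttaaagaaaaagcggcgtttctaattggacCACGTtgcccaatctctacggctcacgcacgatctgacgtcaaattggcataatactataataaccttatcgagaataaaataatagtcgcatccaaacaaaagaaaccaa

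The LTI78 window held 3 DRE cores, starting 140, 90 and 33 bases before the gene, and no ABRE core. The RD29B window held 4 ABRE cores, at 143, 61, 38 and 10 bases, and 1 DRE core at 136 bases. The longest stretch shared by both windows had 16 bases (acatgatgggccaata) and began 164 bases before LTI78 and 160 bases before RD29B. The ABF3 window held 1 ABRE core at 111 bases. Searched on both strands in the same way, the ABRE core was present upstream of 6 of the 10 genes and of 23.5% of 37049 loci, and the DRE core upstream of 3 of the 10 and of 14.0%. ABI5 had 7 ABRE core matches, of which 6 were the opposite strands of 3 palindromic G-boxes (CACGTG), RAB18 had 3 in a window that reaches into the neighbouring gene AT5G66410, and ABF2, HAI1 and NCED3 had neither core. The CArG box, the motif of MADS-box factors, was found upstream of 0 of the 10 genes and of 2.62% of loci. Matches are letters in this window and do not show binding. Bases after the annotated start and further upstream were not searched, so a gene without a core here may hold one there.

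**Figure D1:**
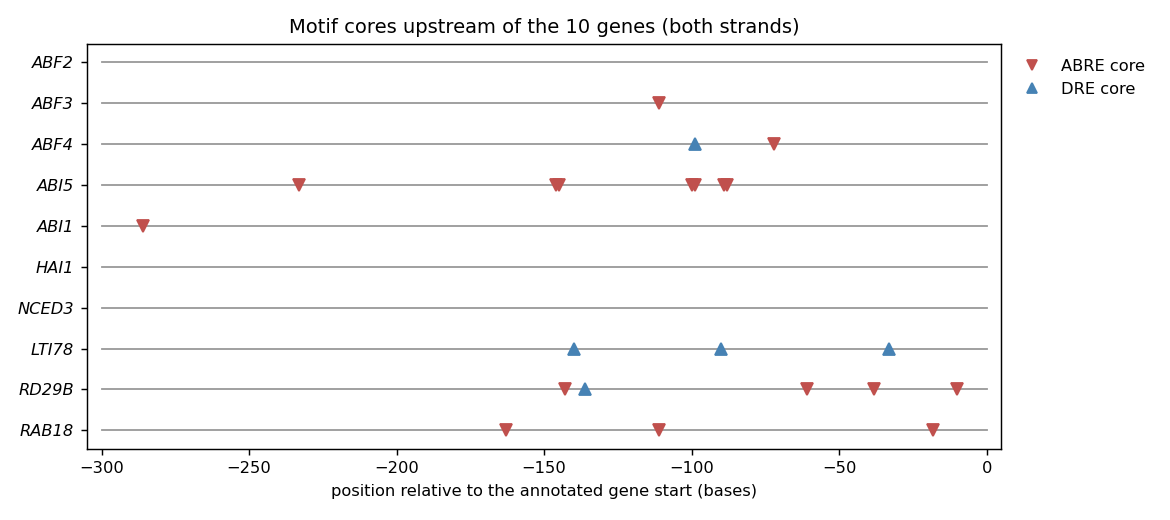
Positions of ABRE cores (red, ACGTG) and DRE cores (blue, CCGAC) on either strand in the 300 bases before the annotated start of each gene, with distance from the start in bases on the horizontal axis. Within these 300 bases LTI78 has 3 DRE cores and no ABRE core, while RD29B has 4 ABRE cores and 1 DRE core. Bases after the start were not searched.

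ABF3, a bZIP factor that activates drought and abscisic acid responses in leaves, stood at 42.4 and 33.7 CPM in stk, against 276 and 258 CPM in wt. Both stk libraries were far below both wt libraries, and the replicates of each genotype lay close together. ABF3 averaged 38.1 ± 6.16 CPM in stk and 267 ± 13.1 CPM in wt (SD, n = 2 each), 7.02-fold lower in stk, with a log2 fold change of -2.81 ± 0.42 (SE). It was the 1 gene of the 10 that DESeq2 or limma-voom called: DESeq2 called it lower (adjusted p = 1.39e-07), as did limma-voom (adjusted p = 0.00246), while edgeR's quasi-likelihood test did not (adjusted p = 0.329). The same edgeR test did call ABF3 with a replicate block (adjusted p = 0.00157) and with no filter on low counts (adjusted p = 1.21e-05). Over all genes tested, edgeR called 0.00553% in either direction, DESeq2 called 0.283% lower in stk and limma-voom 0.0553% lower. By edgeR's unadjusted p (0.000174), ABF3 ranked 7 of 18092 genes.

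With 1 library left out at a time, the edgeR log2 fold change of ABF3 lay between -2.96 and -2.66. DESeq2 called it each time (adjusted p from 0.000995 to 0.00811), and edgeR called it without wt replicate 1 (adjusted p = 0.00215) and without wt replicate 2 (adjusted p = 0.0289) but not without stk replicate 1 (adjusted p = 0.414) or stk replicate 2 (adjusted p = 0.164). In each of these fits the spread comes from the genotype that kept 2 libraries, and the lone library is assumed to vary like them, so the calls are not a separate check on ABF3. The replicates of ABF3 differed by 0.33 in stk and 0.10 in wt on the log2 CPM scale, where the median over all tested genes was 0.76 in stk and 0.70 in wt. The gene DJ1C overlaps the end of ABF3 by 24 bases on the opposite strand, from which reads cannot be separated because the TruSeq libraries carried no strand mark. DJ1C had 14 and 212 counts in stk and 170 and 271 in wt, while ABF3 had 164 and 410 counts in stk and 1535 and 2806 in wt. Some cell type markers also lay apart by genotype. The phloem gene SEOR1 stood at 70.9 and 48.4 CPM in stk, against 2.70 and 4.96 CPM in wt. The other phloem markers overlapped between genotypes, with SUC2 at 625 and 278 CPM in stk and 839 and 151 CPM in wt, and APL at 86.7 and 47.7 CPM in stk and 114 and 61.1 CPM in wt. The fruit valve gene FUL stood at 19.4 and 27.6 CPM in stk, against 2.52 and 6.06 CPM in wt. The seed coat gene MUM2 stood at 16.0 and 19.3 CPM in stk, against 5.76 and 0.367 CPM in wt, while TT2 and BAN overlapped between genotypes. At low counts, TT10 and LEC1 lay above wt in both stk libraries, and TT12, L1L and MYB60 lay below. Any part of the cells marked by these genes in the ABF3 values was not tested.

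Neither ABF2, ABF4 nor ABI5 was called by edgeR, DESeq2 or limma-voom. ABF2, which acts in sugar and abscisic acid signalling, stood at 27.4 and 57.7 CPM in stk, against 22.5 and 31.8 CPM in wt. These ranges overlap, and ABF2 had a log2 fold change of 0.65 with an SE of 0.57 (edgeR adjusted p = 1), which was 0.0058 without stk replicate 2. ABF4, which acts with ABF2 and ABF3 under drought, stood at 1.55 and 19.3 CPM in stk, against 17.1 and 20.3 CPM in wt. Only stk replicate 1, with 6 counts, was low, and the log2 fold change, -0.83 with an SE of 1.18 (edgeR adjusted p = 1), was 0.065 without that library and -3.58 without stk replicate 2. A long non-coding locus, AT3G03815, covers 2516 bases of ABF4 on the opposite strand and had 0 and 11 counts in stk and 0 and 0 in wt. With no strand mark, reads of ABF4 and AT3G03815 cannot be separated there. How such reads were counted is not given, so the ABF4 level carries that limit. AT3G19300 overlaps ABF4 by 6 bases on the opposite strand and had 12 and 102 counts in stk and 38 and 136 in wt.

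ABI5, best known for growth arrest of germinating seeds, stood at 6.47 and 26.9 CPM in stk, against 6.48 and 53.1 CPM in wt. It was higher in replicate 2 of both genotypes, by a ratio of replicate 1 to replicate 2 of 0.240 in stk and 0.122 in wt. Its log2 fold change was -0.83 with an SE of 1.07 (edgeR adjusted p = 1), and with 1 library left out it lay between -2.22 without stk replicate 2 and 1.38 without wt replicate 2.

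Per exon length, ABF3 was the leading ABF gene in wt. The summed level of ABF1, ABF2, ABF3 and ABF4 was 43.9 and 77.7 TPM in stk, against 200.4 and 226 TPM in wt. ABF3 made up 59.8% and 27.2% of that sum in stk, against 86.3% and 76.7% in wt. ABF2 made up 36.6% and 44.1% in stk and 6.65% and 8.95% in wt, with levels of 16.1 and 34.3 TPM in stk and 13.3 and 20.2 TPM in wt. In stk the leading ABF gene was thus ABF3 in replicate 1 and ABF2 in replicate 2. Of the loci with a count above 0 in each library, 55.0% and 59.5% lay below ABF3 in stk, against 93.9% and 94.9% in wt. These shares and ranks are descriptions of the 4 libraries and were not tested. The ABF4 part of the sums carries the limit of its overlap with AT3G03815.

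**Figure D2:**
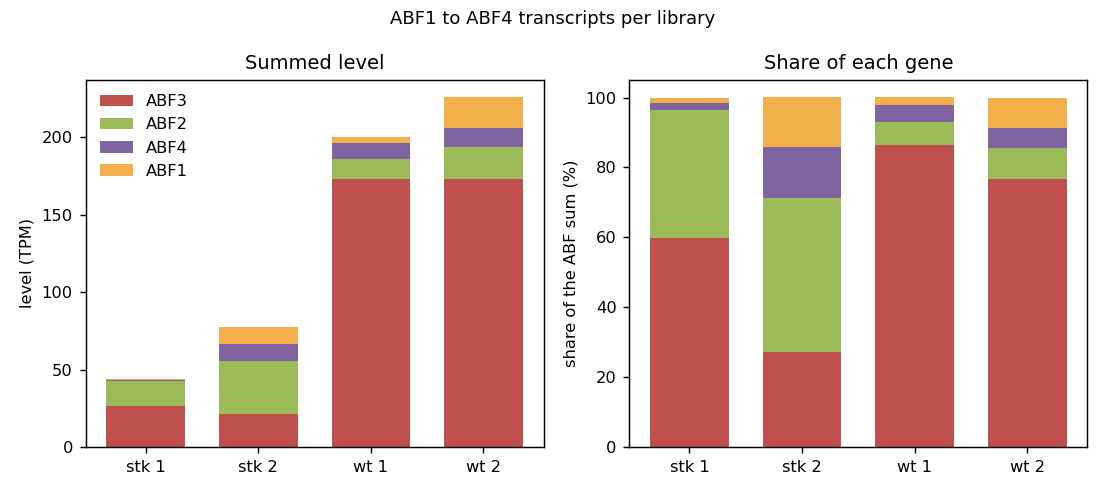
Left, summed level of ABF1 to ABF4 in TPM in each library; right, the share of each gene in that sum in percent. ABF3 fills 86.3% and 76.7% of the wt sums and 59.8% and 27.2% of the stk sums.

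Neither phosphatase gene was called by edgeR, DESeq2 or limma-voom. HAI1, a PP2C gene strongly induced by abscisic acid, stood at 355 and 158 CPM in stk, against 143 and 81.8 CPM in wt. Both stk values lay above both wt values, and replicate 1 was above replicate 2 in each genotype. The log2 fold change was 1.19 ± 0.53 (SE), and HAI1 passed neither edgeR (adjusted p = 1; unadjusted p = 0.0545) nor DESeq2 (adjusted p = 0.796). Without stk replicate 1 the log2 fold change of HAI1 was 0.52. ABI1, a PP2C that blocks the SnRK2 kinases when the hormone is absent, stood at 162 and 129 CPM in stk, against 129 and 105 CPM in wt. Its groups touched at 129 CPM, and its log2 fold change was 0.31 with an SE of 0.40 (edgeR adjusted p = 1), with MEK1 on the opposite strand overlapping its span by 22 bases. Per exon length HAI1 had 258 and 117 TPM in stk and 105 and 64.4 TPM in wt, and ABI1 113 and 91.0 TPM in stk and 91.3 and 79.2 TPM in wt.

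NCED3, the drought-induced dioxygenase that commits carotenoids to abscisic acid, stood at 106 and 81.0 CPM in stk, against 65.0 and 27.1 CPM in wt. Both stk libraries were above both wt libraries, and the difference of 1.02 on the log2 scale, with an SE of 0.52, was called neither by edgeR (adjusted p = 1) nor by DESeq2 (adjusted p = 1). Without wt replicate 1 the log2 fold change of NCED3 was 1.80, and without wt replicate 2 it was 0.53. Of the 9 members tested, 3 had both stk values above both wt values (HAI1, NCED3 and LTI78), an order held by 15.9% of all tested genes, and ABF3 alone had both below, an order held by 16.6%.

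The 3 response genes had 3 different patterns, and none was called by edgeR, DESeq2 or limma-voom. LTI78, a hydrophilic protein gene induced by cold, drought and abscisic acid, stood at 93.7 and 8.89 CPM in stk, against 5.58 and 2.94 CPM in wt. Both stk values were above both wt values, but stk replicate 1 was 10.5 times stk replicate 2. The log2 fold change was 3.59 ± 1.10 (SE; edgeR adjusted p = 0.957, unadjusted p = 0.0123; DESeq2 adjusted p = 0.0949), and it was 1.08 without stk replicate 1 and 4.47 without stk replicate 2. By unadjusted p under 0.05 in edgeR, LTI78 was the 1 member higher in stk, where 2.22% of all tested genes were, and ABF3 the 1 member lower, where 1.14% were.

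RD29B, which carries several ABREs and responds to the hormone more than to cold, was almost unread. It had 0 and 0 counts in stk and 0 and 3 counts in wt, and it was not tested. The floor of 3 counts corresponds to 0.776 and 0.247 CPM in stk, and to 0.540 and 0.275 CPM in wt, so a lower level cannot be told from absence at this depth.

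RAB18, a dehydrin gene induced by abscisic acid, stood at 14.5 and 0 CPM in stk, against 15.8 and 4.22 CPM in wt. It was high in replicate 1 of both genotypes and had no counts in stk replicate 2, the deepest library, where 3 counts correspond to 0.247 CPM. Its log2 fold change, -0.48 with an SE of 2.09 (edgeR adjusted p = 1), had no stable sign, at 0.78 without wt replicate 1 and 0.53 without stk replicate 2. The gene PLP3b (AT5G66410) overlaps RAB18 by 11 bases on the opposite strand and had 64 and 674 counts in stk and 105 and 679 in wt. EM6, a late embryogenesis gene of maturing seeds that was picked after its values were seen, was read at 17.9 and 0 CPM in stk and at 20.2 and 0 CPM in wt. The embryo and seed storage sums given above, 82.8 and 1.81 CPM in stk and 246 and 1.56 CPM in wt, were likewise highest in replicate 1. Their part in the RAB18 values was not tested.

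**Figure D3:**
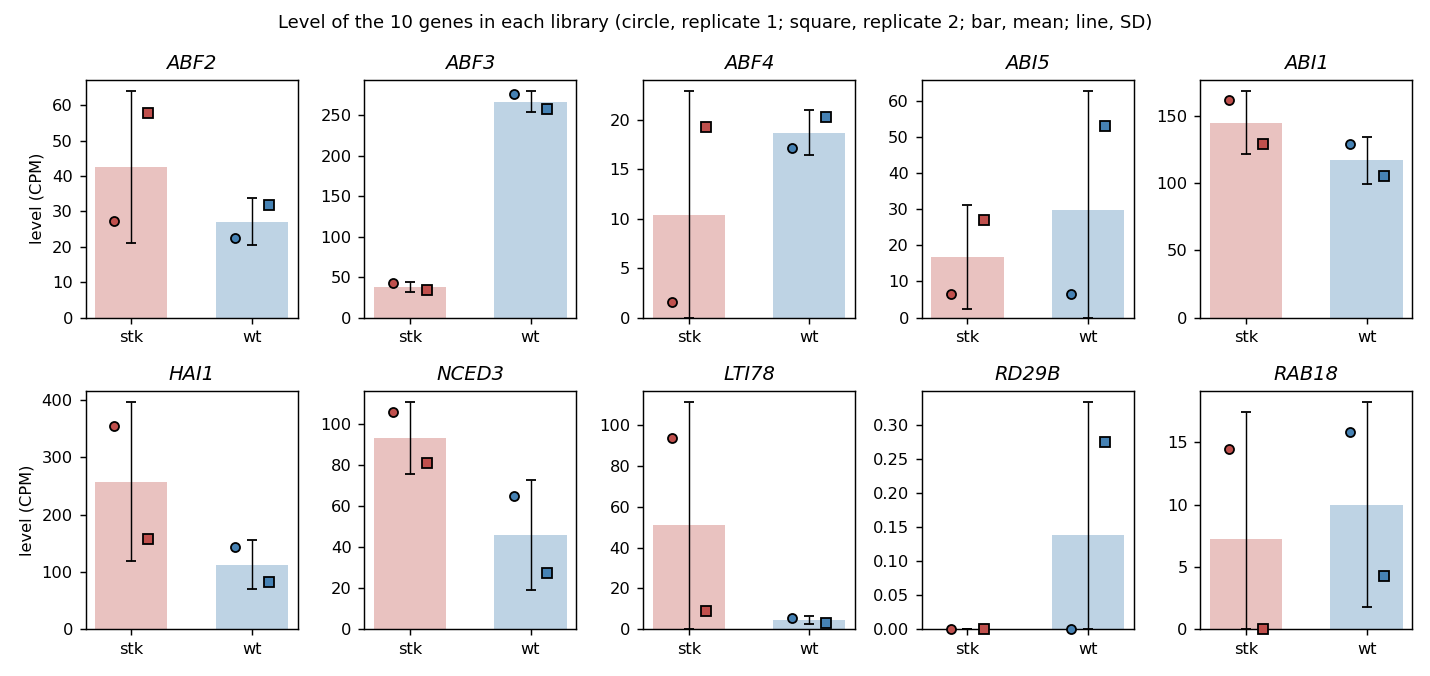
Level in CPM of each of the 10 genes in stk and wt libraries, with circles for replicate 1, squares for replicate 2, bars for the mean and lines for the SD, drawn no lower than 0. ABF3 is at 42.4 and 33.7 CPM in stk and 276 and 258 CPM in wt, while LTI78 and RAB18 are high in stk replicate 1 and low in stk replicate 2.

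Over the 9 members tested, the median log2 fold change was 0.31, with 5 positive and 4 negative, and over all 18092 genes it was -0.075, with 45.8% positive. In both genotypes 6 of the 9 were higher in replicate 1 (ABF3, ABI1, HAI1, NCED3, LTI78 and RAB18), and 3 were higher in replicate 2 (ABF2, ABF4 and ABI5). Of 60 further tested genes of abscisic acid, 21 were higher in replicate 1 of both genotypes and 11 in replicate 2. The share over all tested genes was not counted, so this order is not shown to be particular to the members.

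Genes with the profile of ABF3 were sought among 15570 others with a mean of at least 5 CPM, by the Euclidean distance of log2 CPM values centred on each gene's mean over the 4 libraries. The nearest was GA3OX1 (AT1G15550), which makes bioactive gibberellin, at a distance of 0.50, with 11.9 and 6.58 CPM in stk and 63.2 and 79.8 CPM in wt (DESeq2 adjusted p = 0.00128; edgeR adjusted p = 0.361). MLP28, a major latex protein gene, and RVE2, a MYB-related factor gene, followed at 0.54 each. The other 2 were AT5G03700 at 0.59 and the carboxypeptidase-like gene scpl41 at 0.61. All 5 had both stk values below both wt values, an order that the choice by likeness largely sets.

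The gene nearest to LTI78 by the same measure was IRX6 (AT5G15630), a COBRA-like gene of secondary wall cellulose, at a distance of 0.28, with 426 and 43.8 CPM in stk and 21.6 and 12.9 CPM in wt. FLA11 lay at 0.61 and IRX15, a gene of xylan synthesis, at 0.73. AT4G27435 lay at 0.74 and the pinoresinol reductase gene PRR1 at 0.76. Each of these 5 genes stood highest in stk replicate 1, as LTI78 did, which the choice by likeness largely sets. These distances are descriptions over 4 libraries with no test.

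**Figure D4:**
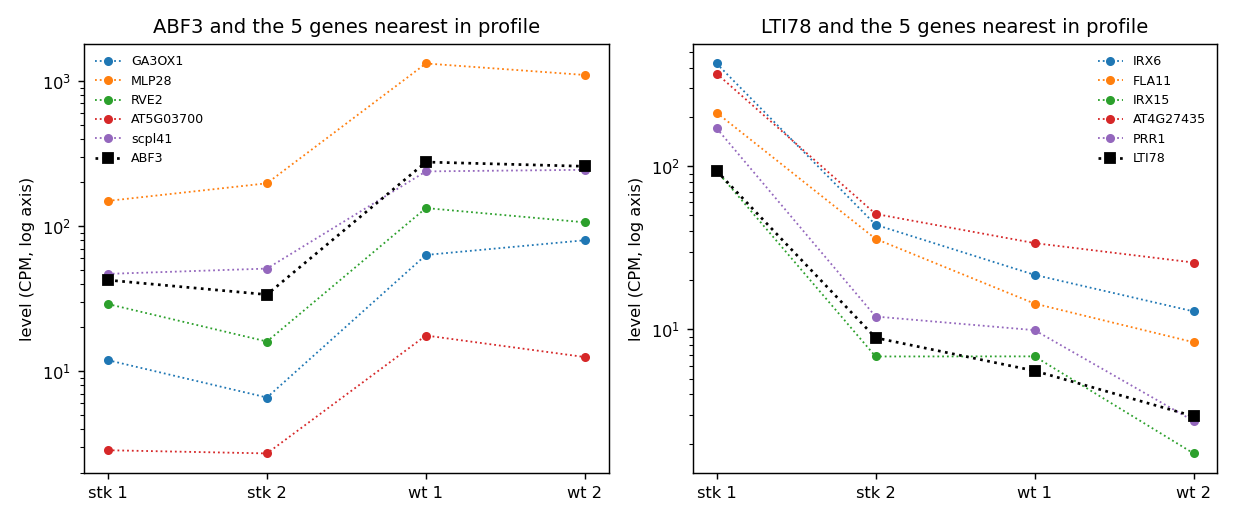
Level in CPM on a log axis in the 4 libraries of ABF3 (left) and LTI78 (right, both black squares) and of the 5 genes nearest to each in profile (coloured circles; dotted lines join the values of 1 gene). The ABF3 group is low in both stk libraries, and the LTI78 group is highest in stk replicate 1, as the choice by likeness largely sets.

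Beyond the 10 genes, 87 further genes of abscisic acid synthesis, breakdown, transport, perception, signalling and response were looked up, and 60 were tested. Neither edgeR, DESeq2 nor limma-voom called any of the 60. In edgeR 4 were higher and 1 lower at an unadjusted p under 0.05, where over all tested genes 2.22% were higher and 1.14% lower. Of the 60, 23 had a positive and 37 a negative log2 fold change, where 45.8% of all tested genes had a positive one. The median over the 60 was -0.30, against -0.075 over all tested genes. Both stk values lay above both wt values for 9 genes and below for 9, close to the shares of 15.9% and 16.6% over all tested genes.

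Among genes of synthesis, 7 of 11 were tested, and NCED3 was the dioxygenase gene with the most reads: NCED2, NCED5, NCED6 and NCED9 stayed at or below 1.29 CPM in every library. BGLU18, which releases abscisic acid from its glucose ester, stood at 27.2 and 76.8 CPM in stk, against 3.42 and 27.3 CPM in wt. Of the breakdown genes, CYP707A3, an 8'-hydroxylase gene, stood at 545 and 423 CPM in stk, against 269 and 196 CPM in wt, with both stk values above both wt values. Its log2 fold change was 1.06 ± 0.41 (SE; edgeR adjusted p = 1, unadjusted p = 0.0346). CYP707A1 stood at 66.2 and 127 CPM in stk and 45.3 and 144 CPM in wt, and both CYP707A2 and CYP707A4 were at most at 0.459 CPM. Of 5 tested transport genes none was called, and 3 overlapped between the genotypes. Their median log2 fold change was -0.93, against -0.075 over all 18092 genes. ABCG31 and NRT1.2 had both stk values below both wt values, an order held by 16.6% of all tested genes. ABCG31 was low, with 0 and 12 counts in stk and 12 and 65 in wt. The edgeR values of all 5 were negative, but limma-voom gave 0.05 for ABCG40. NRT1.2, a nitrate and abscisic acid importer gene, stood at 55.1 and 43.4 CPM in stk, against 117 and 59.6 CPM in wt, and DTX50, an exporter gene, at 19.1 and 35.7 CPM in stk, against 81.5 and 28.4 CPM in wt.

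Receptor genes lay in both directions. PYL5 stood at 61.3 and 40.4 CPM in stk, against 142 and 81.3 CPM in wt (log2 fold change -1.14 ± 0.47, SE; edgeR unadjusted p = 0.0431), and PYR1 at 91.1 and 73.2 CPM in stk, against 45.0 and 38.6 CPM in wt (0.98 ± 0.42; edgeR unadjusted p = 0.0493). Both had an edgeR adjusted p of 1. Of 8 tested receptor genes 6 had a negative log2 fold change, where 45.8% of all tested genes had a positive one. The 9 clade A phosphatase genes summed to 677 and 536 TPM in stk and 667 and 524 TPM in wt. Of these, AHG3 stood at 238 and 249.8 CPM in stk, against 363 and 308 CPM in wt, and AHG1, a phosphatase of seeds, was read at no more than 0.0823 CPM. The kinase gene SNRK2.2 stood at 128 and 59.9 CPM in stk, against 27.2 and 48.7 CPM in wt (log2 fold change 1.31 ± 0.54, SE; edgeR adjusted p = 1), and OST1, the kinase of stomatal closure, at 28.2 and 35.4 CPM in stk, against 25.4 and 10.1 CPM in wt.

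Among 8 tested group A bZIP genes, 6 had a negative log2 fold change, where 45.8% of all tested genes had a positive one. The 11 genes looked up summed to 88.2 and 172 TPM in stk, against 294 and 317 TPM in wt. Of these sums ABF3 alone gave 26.3 and 21.2 TPM in stk and 173 and 173 TPM in wt. The sums thus do not show a drop across the list. The seed regulator ABI3 had no counts in any library, and ABI4 was read in wt replicate 2 alone, at 0.367 CPM. AFP4, a gene of the ABI five-binding proteins, stood at 19.1 and 26.0 CPM in stk, against 51.8 and 37.3 CPM in wt, and AFP1 at 0 and 3.95 CPM in stk, against 17.6 and 1.56 CPM in wt.

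Of 30 dehydration and hormone response genes, 24 were tested, 13 with a positive and 11 with a negative log2 fold change, and their median was 0.10. Besides LTI78, NAC019, a NAC factor of drought and jasmonate responses, had the lowest p, at 167 and 125 CPM in stk, against 43.4 and 75.7 CPM in wt (log2 fold change 1.29 ± 0.45, SE; edgeR adjusted p = 1, unadjusted p = 0.0221). The most abundant members by CPM, picked after their values were seen, included the dehydrin genes ERD14, at 1325 and 1367 CPM in stk and 1281 and 791 CPM in wt, and ERD10, at 976 and 909 CPM in stk and 781 and 557 CPM in wt. The whole list summed to 5602 and 4635 TPM in stk and 5651 and 3163 TPM in wt, so the genotypes overlapped.

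**Figure D5:**
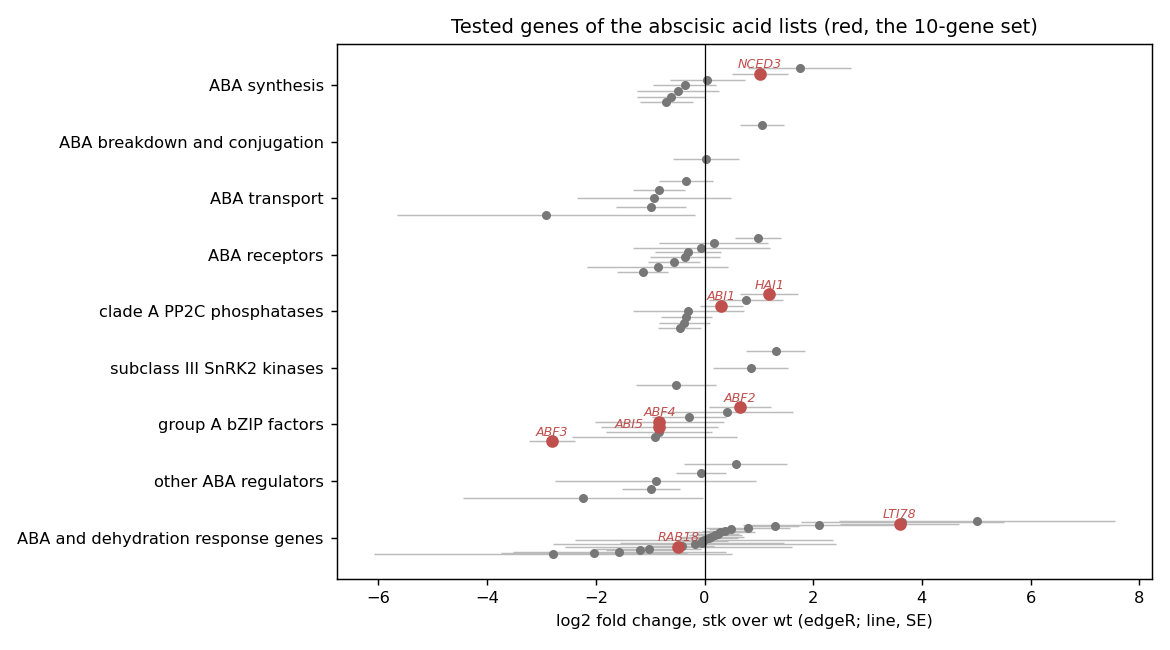
Log2 fold change of stk over wt by edgeR, with its SE as a line, for every tested gene of 9 abscisic acid lists (grey) and for the genes of the 10-gene set among them (red). ABF3 lies lowest among group A bZIP genes at -2.81, and LTI78 lies at 3.59 among response genes.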

How the data were processed

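The authors deposited gene-level counts, 37051 loci by 4 libraries, as whole numbers with a different total in each library. The submitters' processing notes list featureCounts 1.6.3, STAR 2.7.0, Trimmomatic 0.38 and DESeq2 1.38.3, with no order or role. What genome build, strand setting and rule for multi-mapped reads were used is not given in the sources used here, so genes with close paralogs or opposite-strand partners carry that limit. The labels give no batch.

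Counts were tested across all genes with edgeR 4.0.16 (quasi-likelihood test, TMM scaling, filterByExpr, 18092 genes, genotype as the single term, R 4.3.3), with Benjamini-Hochberg adjustment over all genes tested and a threshold of 0.05. DESeq2 1.42.0, on all loci with a count, and limma-voom (limma 3.58.1) were alternatives, as were other scalings, filters, a replicate block and each library left out. The script was tested on simulated data. SEs come from the quasi-likelihood F statistic. An exact permutation test of 2 against 2 libraries cannot go below p = 0.333. Floors of 3 counts cover counting error only. TPM used merged RefSeq TAIR10.1 exon lengths, to which all 37051 loci matched.

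The members and lists were chosen with earlier results of these data known. Besides the members and STK, the text names from each abscisic acid list the called genes and the 2 genes with the lowest p, the 5 genes nearest in profile to ABF3 and to LTI78, opposite-strand partners, and genes marked as picked later or listed for a low level. Of 146 list entries, 2 were dropped because the reference did not give the locus that name. Markers of embryo, endosperm, seed coat, guard cells, phloem and fruit valve were also looked up. Guard cell markers summed to 0 and 3.95 CPM in stk and 5.22 and 3.12 CPM in wt, and phloem markers to 783 and 374 CPM in stk and 955 and 217 CPM in wt.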

Additional observations from a re-analysis of the deposited data

How the results depend on the processing

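The number of genes called depended on the fit: edgeR called 1 with all 4 libraries, and also 1 with DESeq2 size factors and with upper-quartile scaling. It called 275 with no filter on low counts and 0 at a mean of at least 5 CPM (567 at an unadjusted p under 0.05), while DESeq2 called 172 and limma-voom 37. With a replicate block edgeR called 169 genes, of which 1 was a member, ABF3 (adjusted p = 0.00157). The replicate numbers name no shared plant or day, and the deviations of same-numbered libraries from their genotype means correlated at 0.245 across genes. With a library left out, the counts were 198 and 235 without wt replicate 1, 65 and 272 without wt replicate 2, 5 and 60 without stk replicate 1, and 21 and 545 without stk replicate 2, by edgeR and DESeq2.

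Of the members, edgeR called 0 with all 4 libraries. At an unadjusted p under 0.05 there were 2 members, and 3.36% of all 18092 tested genes. With no filter edgeR called 2 members (ABF3 and LTI78, adjusted p = 1.21e-05 and 0.000752), among 275 of 23452 genes. DESeq2 called 1 member among 172 of 17996 genes, and limma-voom 1 among 37 of 18092, both ABF3. The edgeR log2 fold change of LTI78 was 1.08 without stk replicate 1 and 4.47 without stk replicate 2. ABF3 kept a negative sign in every fit listed, from -2.98 to -2.63. The median over the members was -0.076 with no filter, which adds RD29B. Signs turned for RAB18 (from -9.57, where the lone stk library has no counts and the value depends on the prior count, to 0.78), ABI5 (from -2.22 to 1.38) and ABF4 (from -3.58 to 0.065) as libraries were left out. For RAB18 the turned values were 0.78 and 0.77 without wt replicate 1 and 0.53 and 0.56 without stk replicate 2, in edgeR and DESeq2. For ABI5 they were 1.38 and 1.34 without wt replicate 2, and for ABF4 0.065 and 0.044 without stk replicate 1. The cause was not tested. The shallowest library, stk replicate 1, limits low genes such as ABF4 and RD29B.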

Other observations

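DREB factors bind the DRE core and act on genes such as LTI78 in cold and drought, partly apart from abscisic acid. Of 6 DREB and cold regulator genes, 5 were tested, 2 with a positive and 3 with a negative log2 fold change, and no test called any of them. DREB2A, of drought and heat, stood at 208 and 56.1 CPM in stk, against 96.6 and 79.3 CPM in wt. The stk values of DREB2A lay on either side of both wt values, with the higher one in replicate 1. Any part of DREB factors in the LTI78 values was not tested. CBF1, a cold-induced factor gene, stood at 9.32 and 29.0 CPM in stk, against 19.6 and 37.6 CPM in wt.

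LTI30, a cold-induced dehydrin gene chosen once the values were known, was read at 40.1 and 0.494 CPM in stk, against 2.34 and 0.918 CPM in wt. LTI30 was high in stk replicate 1 alone, and its stk replicate 2 lay below both wt values, unlike that of LTI78. RD20, a caleosin gene of drought responses, also picked later, lay the other way, at 183 and 221 CPM in stk, against 739 and 185 CPM in wt, with wt replicate 1 apart from the other 3 libraries. RD22, a dehydration-induced gene also picked later, stood at 1416 and 567 CPM in stk and at 962 and 180.2 CPM in wt, higher in replicate 1 of both genotypes.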
